A study of Mus musculus with 8 samples.

Results

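DI_Nxph1_Npy is a subtype of dorsal inhibitory neurons in the mouse spinal cord, and its members are the 291 nuclei that the deposited annotation gives this name, out of 4076 neurons and 12447 nuclei in all. The study profiled nuclei of the low thoracic cord of wild-type C57BL/6 mice by single-nucleus RNA sequencing (10x v3) in 8 libraries, and the deposited values are counts of UMIs, each a captured transcript. The groups were sorted GFP-positive neurons with projections to the lumbar cord of uninjured mice (traced, 2 libraries), the GFP-negative fractions that carry the same replicate numbers (untraced, 2 libraries), cord after hemisection (2 libraries), the uninjured control of that experiment (1 library), and a GFP-positive fraction labelled as regenerating (1 library). All groups are labelled wild type, and the age of the mice, the time after injury and the number of mice per library are not given in the labels. The traced and regenerating libraries were selected by the tracer. The control and the regenerating library have no replicate. Nothing says that the replicates came from separate animals, so p-values measure the spread between these libraries, which may be technical.

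Dorsal inhibitory neurons of the spinal cord release GABA, glycine or both, and arise from progenitors whose daughters switch on Pax2, Lhx1 and Lhx5 in place of the excitatory programme of Lmx1b. Nxph1 encodes neurexophilin 1, a secreted protein that binds alpha-neurexins at synapses. Npy encodes neuropeptide Y, which in the dorsal horn is made by inhibitory neurons that dampen touch and itch, and Gad1 encodes an enzyme that makes GABA.

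Hemisection replicates 1 and 2 held 76 and 11 members, against 167 in the uninjured control. Traced replicates 1 and 2 held 1 and 0, against 23 and 7 in untraced replicates 1 and 2, and the regenerating library held 6. Members had a median of 6650 and 8004 UMIs per nucleus in hemisection replicates 1 and 2, 8497 in the control, 10617 and 8973 in untraced replicates 1 and 2, and 762.5 in the regenerating library. Summed over members, hemisection replicate 2 had 91410 UMIs, so 1 UMI there was worth 10.9 CPM, the usual scaling of a count to the summed UMIs. The 4 libraries with at least 10 members (hemisection 1 and 2, control, untraced 1) carry the values given as mean ± SD over libraries. No member shared its barcode with a nucleus of another library (0 found), and 6 members, those of the regenerating library, carry no barcode sequence. The control library stands apart. Mitochondrial transcripts made up 0.0504% and 0.0853% of UMIs of members in hemisection replicates 1 and 2, against 0.473% in the control and 0.0722% in untraced replicate 1. A UMI of Nxph1 was found in 18.8% of oligodendrocytes of the control (median 3346.5 UMIs) and in 1.91% of those of untraced replicate 1 (median 3205 UMIs), and the source of these UMIs was not tested.

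The subtype is named after Nxph1 and Npy and was annotated from the same counts, so levels of its markers describe the label and carry no test. Nxph1 was higher in members than in other neurons in each of the 4 libraries with at least 10 members. It lies on chromosome 6 at 8948431 to 9249032 on the plus strand (GRCm38, GENCODE M21). Members had 4003 and 4573 CPM of Nxph1 in hemisection replicates 1 and 2, 3981 CPM in the control and 4733 CPM in untraced replicate 1, while other neurons of the same libraries had 621, 606, 604 and 559 CPM. All 4 values of members lay above all 4 of other neurons, and the difference was 2.85 ± 0.18 on the log2(CPM + 1) scale (SD, n = 4 libraries). In the control, the subtype ranked first of 27 neuron subtypes for Nxph1, with DE_Tac1 next at 2018 CPM. Outside neurons, oligodendrocyte precursors of the control had 2429 CPM of Nxph1. Their markers Pdgfra and Cspg4 summed to 5.32 CPM in members of the control and were at 0 in members of the other libraries. A UMI of Nxph1 was present in all 167 members of the control and in 73 of 76 members of hemisection replicate 1. Of the 6 shallow members of the regenerating library, 5 had one, with 21 UMIs in total.

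Npy marked fewer members and less strongly than in its namesake subtype DI_Npy. The gene lies on chromosome 6 at 49822710 to 49829507 on the plus strand. Members had 86.1 and 197 CPM in hemisection replicates 1 and 2, 257 CPM in the control and 76.6 CPM in untraced replicate 1, against 12.2, 3.14, 58.1 and 26.1 CPM in other neurons. For Npy the subtype had rank 3 in the control, after DI_Npy with 1619 CPM and DI_Rorb with 270 CPM. A UMI of Npy was found in 31.6% and 45.5% of members in hemisection replicates 1 and 2, in 55.1% in the control (92 of 167, exact 95% interval 47.2% to 62.8%) and in 30.4% in untraced replicate 1. Oligodendrocytes, which should lack it, had one in 1.61%, 0.392%, 5.91% and 1.27% of nuclei of those libraries. With each nucleus thinned to 2000 UMIs, the share of members was 31.7% in the control, 14.8% in hemisection replicate 1 (15 shallower nuclei left out) and 13.0% in untraced replicate 1. Intervals cover counting error only.

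Gad1 (chromosome 2, 70553072 to 70602014, plus strand) placed the members among inhibitory neurons. Its level was 222 and 230 CPM in hemisection replicates 1 and 2, 172 CPM in the control and 185 CPM in untraced replicate 1, against 49.0, 40.8, 42.8 and 51.8 CPM in other neurons. In the control it had rank 3 of 27, and CSF-N and DI_Pdyn_Gal stood close to it at 180 and 177 CPM. Slc17a6, the vesicular glutamate transporter that marks excitatory neurons, had 1 and 0 counts in members of hemisection replicates 1 and 2, 25 in the control and 1 in untraced replicate 1. Nxph1, Npy and Gad1 were each higher in members than in other neurons in all 4 libraries, which describes the annotation and is no test of it. A UMI of Npy was found in only some of the members.

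**Figure D1:**
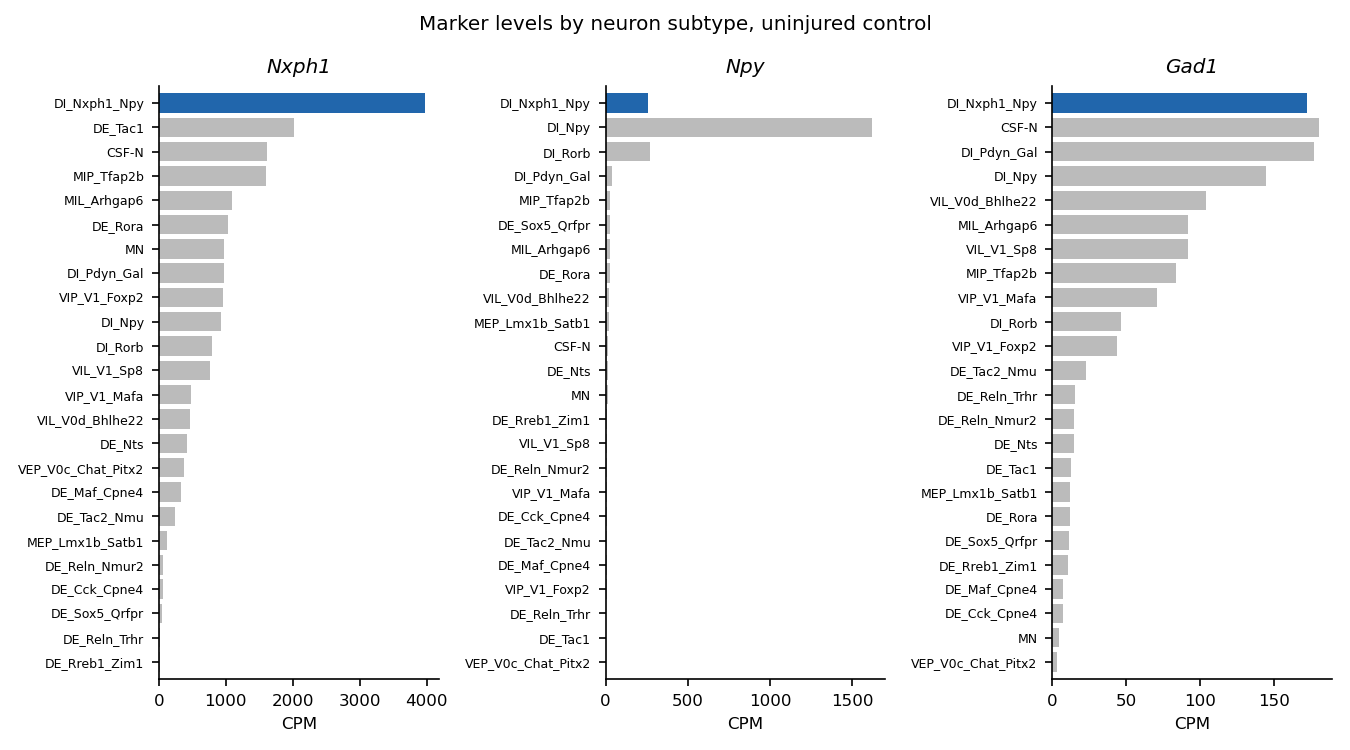
Levels of Nxph1, Npy and Gad1 in CPM (x axis, linear) in 24 of the 27 neuron subtypes with at least 10 nuclei in the uninjured control (y axis), from summed counts. DI_Nxph1_Npy is the top bar in blue: it leads for Nxph1 at 3981 CPM, lies far below DI_Npy for Npy, and is near the highest bars for Gad1.

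Genes other than the 3 markers also differed between members and other neurons. These comparisons describe annotated clusters, which were built from the same counts, and carry no test. Of 4196 genes with at least 50 CPM in members or in other neurons, 81 (1.93%) were over 2-fold higher in members in each of the 4 libraries and 142 (3.38%) over 2-fold lower. Chrm3, the muscarinic M3 acetylcholine receptor, had 2613 and 2779 CPM in members in hemisection replicates 1 and 2, 2209 CPM in the control and 2979 CPM in untraced replicate 1, against 344, 256, 206 and 234 CPM in other neurons. All members' values were above all those of other neurons. Kcnmb2, an accessory subunit of the large-conductance calcium-activated potassium channel, averaged 1354 ± 98.2 CPM in members and 227 ± 21.7 CPM in other neurons (SD, n = 4 libraries each). Rxfp2, a relaxin-family peptide receptor, averaged 69.3 ± 14.3 CPM in members and 2.75 ± 1.32 CPM in other neurons, and led the 12 genes ranked by their smallest difference over the 4 libraries. It was found in few members, with a UMI in 10.5% of those of hemisection replicate 1 and 11.98% of those of the control, and in the control its level was 69.8 CPM in members and 52.0 CPM in DI_Npy. Sall3, a zinc-finger transcription factor, averaged 196 ± 43.9 CPM in members and 23.2 ± 3.70 CPM in other neurons. Other inhibitory subtypes carried it too, as in the control it stood at 154 CPM in members, 139 CPM in DI_Rorb and 98.3 CPM in DI_Pdyn_Gal. In hemisection replicate 1 it stood at 163 CPM in members, 333 CPM in DI_Rorb and 135 CPM in DI_Pdyn_Gal. Eya2, a transcriptional coactivator and phosphatase, averaged 185 ± 36.6 CPM in members and 15.5 ± 6.76 CPM in other neurons. The other genes of this group were Adamts5, a protease of the extracellular matrix, Foxo1, a forkhead factor, Kank1, Nwd2, Corin, a serine protease, and Arhgap31, a regulator of small GTPases. Their differences lay between 2.61 and 3.70 on the log2 scale.

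Other genes were lower in members. Ebf2, a transcription factor, averaged 8.65 ± 10.2 CPM in members and 791 ± 164 CPM in other neurons. Nts, which encodes neurotensin, averaged 2.91 ± 3.80 CPM in members and 177 ± 56.6 CPM in other neurons. Cacna2d1, the calcium channel subunit bound by gabapentin, averaged 63.9 ± 21.4 CPM in members and 1123 ± 122 CPM in other neurons. Adarb2, Tafa1, Cdh13, Meis1 and Myo5b were also over 2-fold lower in each of the 4 libraries. Myo5b had 2 and 0 UMIs in members of hemisection replicates 1 and 2, 4 in the control and 0 in untraced replicate 1.

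**Figure D2:**
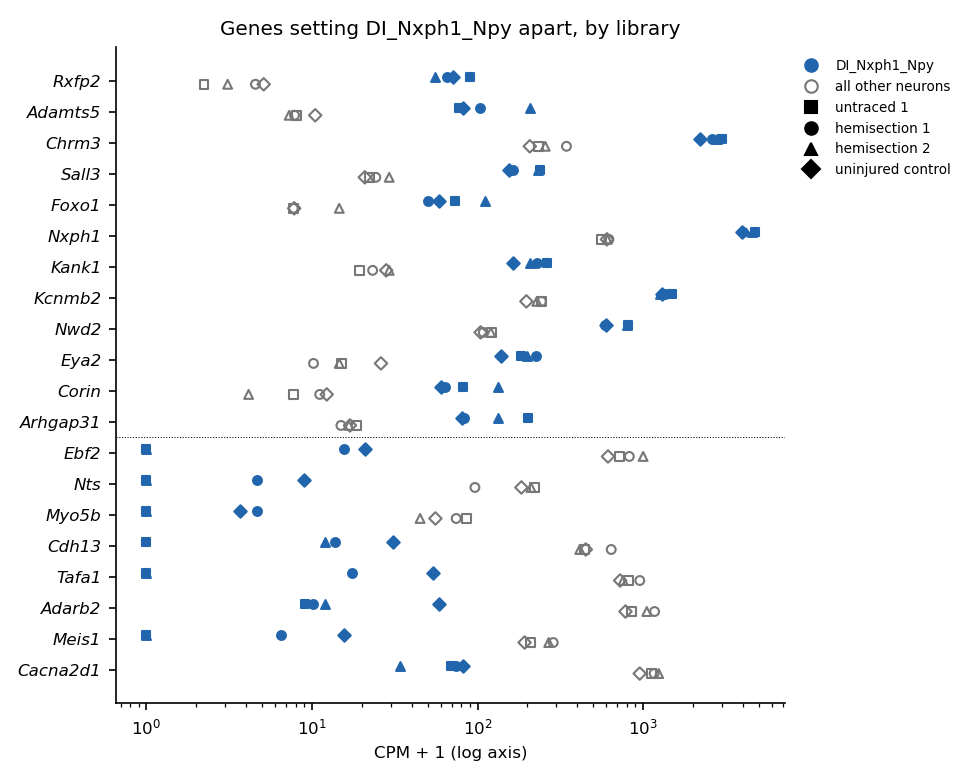
Levels as CPM + 1 (x axis, log scale) of the 12 genes most consistently higher and the 8 most consistently lower in members (filled, blue) than in all other neurons (open, grey), with 1 symbol shape per library. The filled and open symbols of a gene do not overlap, and the dotted line separates the higher from the lower genes.

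Counts by role in this paragraph stand beside 1.93% over 2-fold higher and 3.38% over 2-fold lower over all 4196 genes. They describe the annotation and are no test of it. Of 6 measured inhibitory transmission genes, 3 were over 2-fold higher in each library, among them Gad1 and Slc32a1, and none lower. Slc6a5, the glycine transporter, averaged 86.0 ± 23.3 CPM in members and 78.8 ± 22.2 CPM in other neurons, a difference within the spread between libraries. Of 6 measured dorsal inhibitory identity factors, Gbx1, Lhx1, Rorb and Sall3 were over 2-fold higher. Lhx1 averaged 117 ± 39.5 CPM in members and 11.2 ± 2.79 CPM in other neurons, and Pax2 averaged 208 ± 119 CPM and 79.7 ± 10.6 CPM. Of 7 dorsal excitatory factors, Lmx1b, Sox5, Maf and Ebf2 were over 2-fold lower, whereas Ebf1 averaged 2451 ± 337 CPM in members and 2627 ± 408 CPM in other neurons. Of 6 birth-order factors, Nfib, Zfhx3 and Tcf4 were over 2-fold lower and none higher.

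The counts of receptor and channel genes stand beside 1.93% higher and 3.38% lower over all 4196 genes. Of 22 glutamate receptor genes, Grik2, a kainate receptor subunit, was over 2-fold higher in each library and Grin3a and Grid1 were lower. Of 30 ion channel genes, Kcnb2, a delayed-rectifier potassium channel, was higher and Kcnd3 lower. Of 8 monoamine and acetylcholine receptor genes only Chrm3 passed, and Chrm2, the muscarinic M2 receptor, averaged 760 ± 176 CPM in members and 288 ± 31.5 CPM in other neurons. Of 15 GABA and glycine receptor genes, Gabra2 was lower and none higher. Of 35 axon guidance and adhesion genes, 11 were lower and none higher, among them Slit2, Ntng1 and Cdh13. Of 9 measured genes of the neurexin complex, Nxph1 alone was over 2-fold higher in each library. Among receptors of neuropeptide Y, Npy2r averaged 25.8 ± 11.2 CPM in members and 1.95 ± 1.30 CPM in other neurons, and Npy1r averaged 2.70 ± 3.12 CPM and 27.8 ± 3.36 CPM.

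DI_Pdyn_Gal was the subtype with the most similar profile, at a Spearman correlation of 0.959 over 19787 genes in the control. Depth enters this order, as the excitatory subtype DE_Sox5_Qrfpr with 1598996 UMIs and the inhibitory DI_Rorb with 880642 UMIs stood at 0.9503 and 0.9501. With all sums thinned to 164755 UMIs, a setting added after the data were seen, DI_Pdyn_Gal was first of 23 at 0.869, DI_Rorb followed at 0.866 and DI_Npy was the fifth at 0.863. The values of neighbouring subtypes differ little, and no spread is attached to them. The following comparisons rest on 3 libraries (hemisection 1, control, untraced 1).

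Against DI_Pdyn_Gal, members had more Lhx1, Adamts5, Frzb, Eya2, Tac1 and Pdgfc, and less Gal, Hmga2, Adarb2, Nfib, Pdyn and Chn2. Lhx1 stood at 106, 65.9 and 153 CPM in members of hemisection replicate 1, the control and untraced replicate 1, against 3.38, 0.673 and 7.27 CPM in DI_Pdyn_Gal. Gal, which encodes the peptide galanin, stood at 0, 12.6 and 4.03 CPM in members, against 149, 555 and 211 CPM in DI_Pdyn_Gal.

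DI_Npy and DI_Rorb were added as comparisons after the data were seen, because they share Npy with the subtype. Ebf1, a transcription factor, stood at 1965, 2556.5 and 2745 CPM in members of hemisection replicate 1, the control and untraced replicate 1, against 9.10, 46.5 and 0 CPM in DI_Npy. Sall3 was at 0 counts in DI_Npy in all 3 libraries and Rorb averaged 462 CPM in members against 3.94 CPM in DI_Npy. DI_Npy in turn had more Cdh13, Ndnf, Trhr, Qrfpr, Zfhx3 and Ecel1, as Ndnf averaged 0.832 CPM in members and 140 CPM in DI_Npy. Kcnmb2 separated members from DI_Rorb, at 1355, 1301 and 1492 CPM in members of hemisection replicate 1, the control and untraced replicate 1, against 4.90, 3.41 and 0 CPM in DI_Rorb. Nxph2, a relative of Nxph1, averaged 75.7 CPM in members and 0.379 CPM in DI_Rorb, while Pde3a, a phosphodiesterase, averaged 3.78 CPM in members and 334 CPM in DI_Rorb.

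Members differed among themselves. In the control, the 10 most variable genes by Pearson residuals were Lrrc4c, Gpc5, Trpm3, Kcnip4, Zfp804b, Pcdh9, Clstn2, Mdga2, Scg2 and Tenm3, with residual variances from 13.45 to 24.8 against a median of 1.12 over 11957 genes. Trpm3, a cation channel, ranked second in hemisection replicate 1 and first in untraced replicate 1. Npy and Slc6a5 were mostly found in different members. In the control, 20 of 92 members with a UMI of Npy also had one of Slc6a5 (21.7%), against 56 of 75 members without Npy (74.7%). In hemisection replicate 1 the counts were 0 of 24 and 14 of 52, and in untraced replicate 1 they were 2 of 7 and 9 of 16. Thinned to 2000 UMIs, 4 of 53 members of the control with Npy also had Slc6a5 (7.55%), against 31 of 114 without Npy (27.2%). Oligodendrocytes of the control had a UMI of Npy in 5.91% and of Slc6a5 in 7.81% of nuclei, and the part of free RNA in the overlap was not tested.

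Members with Npy alone (72 in the control, median 8883 UMIs) and with Slc6a5 alone (56, median 8172 UMIs) were summed and compared, a split chosen after the data were seen. Genes were chosen in the control, where the values are a description, and read in the other libraries. Tafa2, which encodes a chemokine-like secreted protein, had 108 and 818 CPM in Npy and Slc6a5 members of hemisection replicate 1, 18.5 and 660.2 CPM in the control, and 0 and 405 CPM in untraced replicate 1. Rgs6, a regulator of G protein signalling, had 157 and 1220 CPM in Npy and Slc6a5 members of hemisection replicate 1, 134 and 1113 CPM in the control, and 117 and 440 CPM in untraced replicate 1. Both were lower with Npy in all 3 libraries. Sorcs1, Pde1c, Lgi2, Cntn6, Sgpp2 and Adamts17 were chosen on the same side. Pcsk5, which encodes a proprotein convertase, had 127 and 37.2 CPM in Npy and Slc6a5 members of hemisection replicate 1, 517 and 8.05 CPM in the control, and 215 and 158 CPM in untraced replicate 1. Ankfn1, Tac1, Stk32a, Pnoc, Plpp4, Calca and Rorb were chosen with it. Of the 16 genes, 15 kept their sign in hemisection replicate 1 and 16 in untraced replicate 1, beside 59.2% and 54.1% of 4342 genes in all. Of the 395 genes that differed over 2-fold in the control, from which the 16 come, 325 (82.3%) kept their sign in hemisection replicate 1 and 278 (70.4%) in untraced replicate 1. Rorb was the exception, at 240 and 387 CPM in Npy and Slc6a5 members of hemisection replicate 1. Hemisection replicate 1 had 24 and 14 such members and untraced replicate 1 had 5 and 9, so these are sums over few nuclei. In untraced replicate 1, Calca had 1 and 1 UMIs in Npy and Slc6a5 members and Pnoc 2 and 2. Their kept signs there come only from the summed UMIs of the members. In hemisection replicate 1, Calca had 1 and 0 UMIs.

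**Figure D3:**
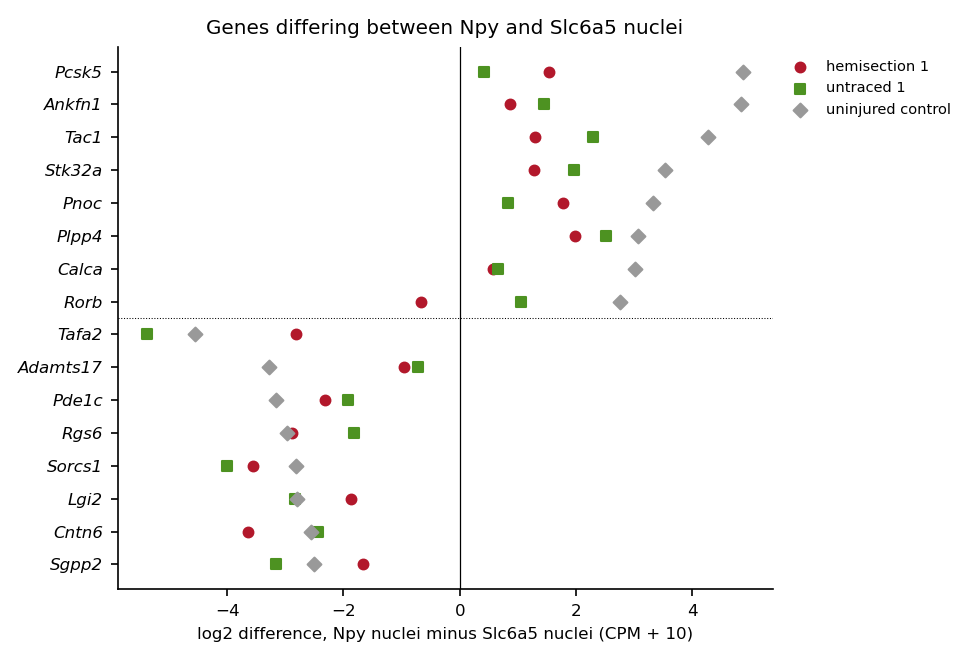
Log2 difference (CPM + 10, x axis) between members with Npy alone and members with Slc6a5 alone for the 16 genes chosen in the uninjured control (y axis), with 1 symbol per library. Genes above the dotted line were chosen as higher with Npy and those below it as higher with Slc6a5; Rorb in hemisection replicate 1 is the point on the other side of 0.

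The share of the subtype among neurons addressed which neurons project to the lumbar cord and whether injury changed the make-up. In traced replicates 1 and 2 members were 1 of 80 neurons (1.25%, exact 95% interval 0.0316% to 6.77%) and 0 of 25 (exact 95% interval 0% to 13.7%). In untraced replicates 1 and 2 they were 23 of 354 (6.5%, 4.16% to 9.59%) and 7 of 123 (5.69%, 2.32% to 11.4%). The shares of the groups did not overlap, but the log2 fold change of -2.69 (SE 0.82) missed the threshold with edgeR's quasi-likelihood test and Benjamini-Hochberg adjustment over 28 subtypes (adjusted p = 0.0949, unadjusted p = 0.0180). That test called 0 of the 28 subtypes (0%), and 9 had an unadjusted p under 0.05. With TMM factors the adjusted p was 0.0406 at a log2 fold change of -3.07. Among dorsal inhibitory neurons alone, members were 1 of 3 and 0 of 1 in traced replicates 1 and 2, against 23 of 72 and 7 of 32 in untraced replicates 1 and 2. There the difference was -0.21 (adjusted p = 0.886, edgeR), so at this depth a shortage of the subtype beyond that of its class was not detectable. The single traced member had 2 UMIs of Npy, 4 of Nxph1 and 1 of Gad1 among 3792.

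After hemisection, members were 7.60% (76 of 1000, 6.03% to 9.42%) and 10.2% (11 of 108, 5.2% to 17.5%) of neurons in replicates 1 and 2, against 7.77% (167 of 2148, 6.68% to 8.99%) in the control. The shares overlapped and the difference was 0.06 on the log2 scale (SE 0.25, adjusted p = 0.940, edgeR), and only DE_Rreb1_Zim1, 1 of 28 subtypes (3.57%), was called. In the regenerating library members were 6 of 238 neurons (2.52%, 0.931% to 5.41%), with no replicate, a traced sort and far fewer UMIs per nucleus, so no test was made.

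**Figure D4:**
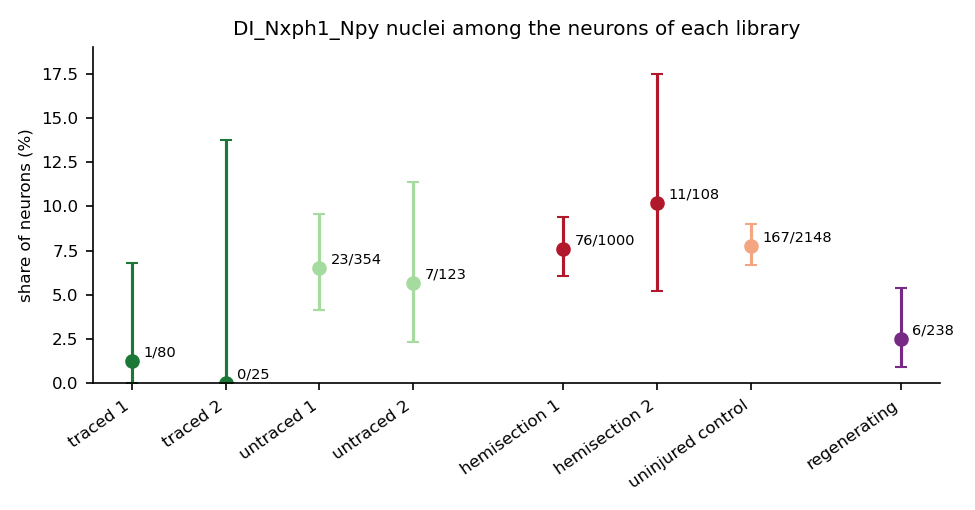
Share of DI_Nxph1_Npy nuclei among neurons in percent (y axis) in each of the 8 libraries (x axis), as points with exact 95% binomial intervals and the counts beside them. The traced libraries lie at 1.25% and 0%, the untraced, hemisection and control libraries between 5.69% and 10.2%, and the regenerating library at 2.52%.

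Within members, hemisection was compared with the uninjured control over 7541 genes. The fit had 1 residual degree of freedom, since the control and untraced replicate 1 were single libraries that were assumed to vary like the pair of hemisection libraries. With edgeR's quasi-likelihood test and Benjamini-Hochberg adjustment, 246 genes (3.26%) were called, 23 higher (0.305%) and 223 lower (2.96%). DESeq2 called 5, all lower, among them mt-Atp6, Gm26992, mt-Nd2 and Chgb. With untraced replicate 1 in place of the control, edgeR called 5, of which 2 were among the 246, with Apoe and Cmss1 higher and Kcnq5 and Ypel3 among the lower. Those names were read from the results after the values were seen. The overlap of 2 genes was counted whatever their direction. Cmss1 stood at 1088 and 853 CPM in hemisection replicates 1 and 2, 2154 CPM in the control and 246 CPM in untraced replicate 1. After hemisection it was thus above untraced replicate 1 but below the control. Of the 246 genes called against the control, 221 were also called in the same direction in other neurons. There, 2547 of 13999 tested genes were called in all. For 178 of the 246, untraced replicate 1 lay nearer to the hemisection mean than to the control on the log2(CPM + 1) scale. The 246 were picked for a control far from hemisection, and no such share was computed over all 7541 genes. The count therefore cannot tell which library is unusual. In the subtype's own markers no change was called. With edgeR, Nxph1 moved by 0.08 (SE 0.36, adjusted p = 0.989), Gad1 by 0.35 (SE 0.38, adjusted p = 0.899) and Npy by -1.18 (SE 0.39, adjusted p = 0.0674).

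Mitochondrial transcripts had the highest count of calls for their list, with 11 of 12 tested lower (median -3.03, against -0.00 over all genes tested). mt-Nd2 stood at 29.3 and 43.8 CPM in hemisection replicates 1 and 2, against 425 CPM in the control and 40.3 CPM in untraced replicate 1. The control is the high library, and untraced replicate 1 lies between both hemisection libraries. The change against the control was -3.76 (SE 0.44, adjusted p = 7.53e-14, edgeR), and it was -3.60 in other neurons. Against untraced replicate 1, the log2 difference was 1.28 for mt-Nd5 and 0.51 for mt-Nd3, in the opposite direction. In oligodendrocytes, mt-Nd2 stood at 60.2 and 58.4 CPM in hemisection replicates 1 and 2, 508 CPM in the control and 28.9 CPM in untraced replicate 1. The part of RNA quality in this result was not tested. Counts of calls in this list and in the lists that follow stand beside 2.96% called lower and 0.305% called higher over all 7541 genes.

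Of 12 tested chaperone genes of the endoplasmic reticulum and cytosol, 8 were lower and none higher (median -1.45). Hspa5, the chaperone BiP, stood at 40.3 and 87.5 CPM in hemisection replicates 1 and 2, 255 CPM in the control and 76.6 CPM in untraced replicate 1. Of 11 tested genes of cholesterol synthesis and uptake, 6 were lower, among them Hmgcs1, Sqle, Cyp51 and Msmo1, with a median of -2.06. Sqle, squalene epoxidase, had 1 and 0 UMIs in hemisection replicates 1 and 2, 86 in the control and 7 in untraced replicate 1. The ratio of control to hemisection was 36.5 (exact 95% interval 6.37 to 1457, counting error only). In oligodendrocytes Sqle stood at 24.1 and 8.59 CPM in hemisection replicates 1 and 2, 93.9 CPM in the control and 60.6 CPM in untraced replicate 1.

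Of 15 tested genes of peptide processing and dense core vesicles, Pcsk1n, Scg2, Chga and Chgb were lower and none higher, while Pcsk2, Pam, Cadps and Cadps2 had log2 differences of 0.19, 0.20, 0.05 and 0.74 and were not called. Chgb, a granin of secretory vesicles, stood at 130 and 131 CPM in hemisection replicates 1 and 2, 761 CPM in the control and 177 CPM in untraced replicate 1. Of 6 inhibitory peptides and markers, Calb2, Nppc and Pnoc were called lower. The replicates disagreed for Calb2, at 5.49 and 65.6 CPM in hemisection replicates 1 and 2. Its level was 54.5 CPM in the control and 40.3 CPM in untraced replicate 1. Nppc stood at 14.6 and 65.6 CPM in hemisection replicates 1 and 2, against 83.8 CPM in the control and 40.3 CPM in untraced replicate 1. Npy missed the threshold, as did Penk at -1.19 (SE 0.39, adjusted p = 0.0655, edgeR). Tac1, the precursor of substance P, stood at 7.32 and 43.8 CPM in hemisection replicates 1 and 2, 178 CPM in the control and 8.06 CPM in untraced replicate 1, and fell by 3.76 against the control (SE 0.52, adjusted p = 1.22e-09, edgeR), whereas its log2 difference from untraced replicate 1 was 0.60. Calca, which encodes CGRP, had 1 and 0 UMIs in hemisection replicates 1 and 2 and 64 in the control. In oligodendrocytes Tac1 stood at 0 and 2.29 CPM in hemisection replicates 1 and 2, 18.8 CPM in the control and 3.83 CPM in untraced replicate 1, and the part of free RNA in these falls was not tested. Of 7 inhibitory transmission genes, Slc32a1, the vesicular transporter of GABA and glycine, was lower, at 54.9 and 153 CPM in hemisection replicates 1 and 2, against 335 CPM in the control and 125 CPM in untraced replicate 1. Gad1, Gad2 and Slc6a5 were not called. Other neurons also had falls against the control, with log2 changes of -2.96 for Slc32a1, -2.38 for Npy, -2.23 for Tac1 and -2.14 for Chgb. In members Slc32a1 changed by -2.11 and Chgb by -2.58, so falls in these genes were not particular to members.

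Mal, which encodes a protein of myelin, was among the largest falls. It had 0 UMIs in both hemisection libraries and 69 in the control, which is at least 9.75-fold lower against a limit of 3 UMIs summed over both hemisection libraries, and mt-Nd4l with 0 and 105 was at least 14.8-fold lower. All 6 oligodendrocyte markers together summed to 47.6 and 87.5 CPM in members of hemisection replicates 1 and 2, 709 CPM in the control and 226 CPM in untraced replicate 1. In members of hemisection replicate 2, Mal and Mag were at 0 counts, and in replicate 1 Mal was. The part of free oligodendrocyte RNA in this result was not tested.

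Few genes rose. Igkc, an immunoglobulin light chain gene of B-lineage cells, had 25 and 12 UMIs in hemisection replicates 1 and 2, 1 in the control and 0 in untraced replicate 1, a ratio of 87.2 to the control (exact 95% interval 14.7 to 3538). Oligodendrocytes carried it at 139 and 596 CPM in hemisection replicates 1 and 2, 2.27 CPM in the control and 2.55 CPM in untraced replicate 1. Hba-a1 and Hba-a2, nearly identical haemoglobin genes whose reads may be split between them, stood at 98.9 and 109 CPM and at 73.2 and 120 CPM in hemisection replicates 1 and 2, against 23.9 and 16 CPM in the control. Members of untraced replicate 1 had 64.5 CPM of Hba-a1 and 32.3 CPM of Hba-a2. Oligodendrocytes had 319 and 245 CPM of Hba-a1 in hemisection replicates 1 and 2, against 68.9 CPM in the control. St8sia4, which encodes an enzyme that adds polysialic acid to cell adhesion molecules, stood at 80.6 and 54.7 CPM in hemisection replicates 1 and 2, 12 CPM in the control and 36.3 CPM in untraced replicate 1, and rose by 2.58 (SE 0.50, adjusted p = 4.14e-05, edgeR). In other neurons its change was 0.52 (adjusted p = 0.101, edgeR), and the difference between both changes, 2.14, missed the threshold (adjusted p = 0.0518, edgeR). Btg1, Pcgf6, Atp8b2 and Fam185a were the other named rises against the control, between 1.79 and 2.10 on the log2 scale. Against untraced replicate 1 their log2 differences were 0.36, 0.55, 1.76 and 0.54, in that order. Other neurons changed by 1.93, 0.68, 0.46 and 0.63 in these genes against the control.

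The following counts stand beside 3.26% called over all 7541 genes. Of 11 tested regeneration-associated genes 0 were called by edgeR (2 at an unadjusted p under 0.05) and 0 by DESeq2, and Gap43, a growth cone protein gene, moved by 0.41 (SE 0.38, adjusted p = 0.857). Of 7 dorsal inhibitory identity factors 0 were called by edgeR (2 at an unadjusted p under 0.05) and 0 by DESeq2, and Pax2 moved by 0.86 (SE 0.38, adjusted p = 0.306). Of 34 ion channel genes 2 were lower, among them Kcna1, of 22 glutamate receptor genes Grik3, of 34 axon guidance genes Unc5d, while of 17 GABA and glycine receptor genes 0 were called by edgeR (2 at an unadjusted p under 0.05) and 0 by DESeq2. Ebf3 was the 1 call among 4 dorsal excitatory factors and Sstr2 among 6 peptide receptors.

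**Figure D5:**
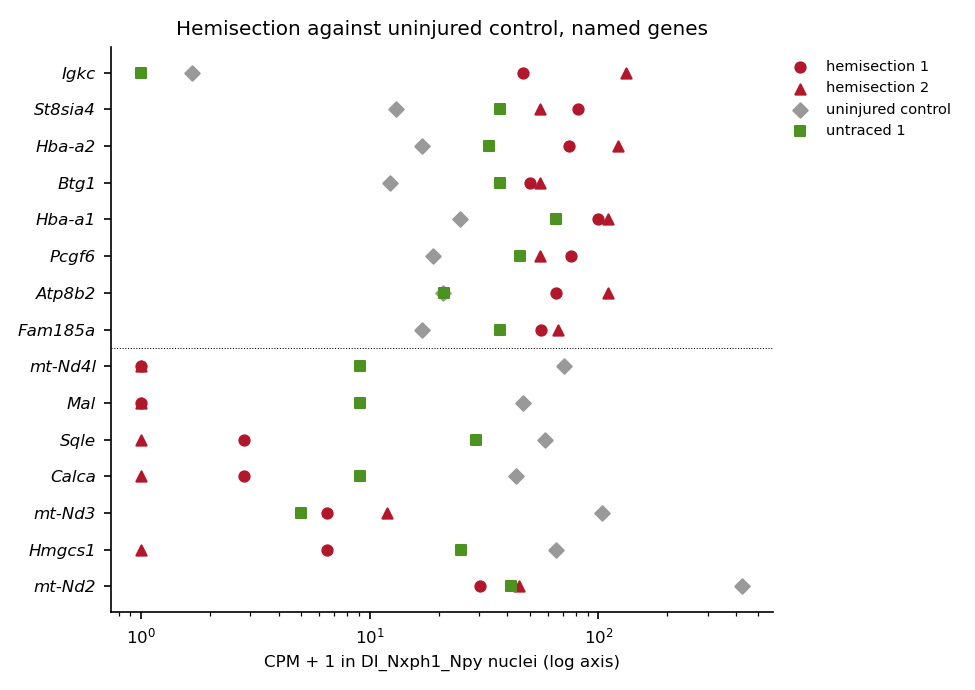
Levels as CPM + 1 (x axis, log scale) in DI_Nxph1_Npy nuclei of the 8 largest rises and 7 of the 8 largest falls after hemisection (y axis), for hemisection replicates 1 and 2, the uninjured control and untraced replicate 1. In the lower block the control is the highest of the 4 libraries for all 7 genes, and untraced replicate 1 is nearer to the hemisection libraries for mt-Nd3 and mt-Nd2.

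Whether members responded to hemisection unlike other neurons was tested as an interaction in 11881 genes. edgeR called 8 genes (0.0673%), 2 with a higher and 6 with a lower response in members, and DESeq2 called 0 (36 at an unadjusted p under 0.05). Eya2, one of the genes that set the subtype apart, stood at 225 and 197 CPM in members of hemisection replicates 1 and 2, against 138 CPM in the control, while other neurons had 9.22 and 13.6 CPM in hemisection replicates 1 and 2 and 25.1 CPM in the control. The interaction was 1.88 (SE 0.43, adjusted p = 0.0234, edgeR). Within members alone Eya2 changed by 0.61 and was not called (adjusted p = 0.640, edgeR). Pcsk5 and Ankfn1, which in the control were found with Npy rather than Slc6a5, had interactions of -1.88 (SE 0.40, adjusted p = 0.00552, edgeR) and -1.91 (SE 0.40, adjusted p = 0.00526, edgeR). Pcsk5 stood at 103 and 208 CPM in members of hemisection replicates 1 and 2, against 289 CPM in the control, while other neurons had 257 and 291 CPM in hemisection replicates 1 and 2 and 172 CPM in the control. Against untraced replicate 1 the interactions were 0.59 for Eya2, -0.61 for Pcsk5 and -1.38 for Ankfn1, none of them called (adjusted p = 1 each, edgeR). With a minimum of 5 nuclei per library, edgeR called Spp1, Adarb2 and Pde11a and none of these 3. Members with Npy alone were 24 of 76 and 5 of 11 in hemisection replicates 1 and 2, against 72 of 167 in the control. The part of this make-up in the interaction was not tested. The pool of other neurons differed in make-up too. Its motor neuron markers Chat, Slc5a7 and Isl1 summed to 4.61 and 3.14 CPM in hemisection replicates 1 and 2. They summed to 34.0 CPM in the control and 18.7 CPM in untraced replicate 1. Whether the make-up of this pool, rather than a change within its neurons, gave the values of other neurons was not tested.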

How the data were processed

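The authors deposited a single matrix of UMI counts for 19787 genes and 12447 nuclei with no normalization, and an annotation of library, class and subtype, used as given. Cell Ranger 4.0.0, Seurat 3 and the builds mm10 and GRCm38 are named, per the submitters' processing notes; how nuclei were filtered, doublets treated and subtypes annotated is not stated there. All deposited nuclei were kept, and no doublets were called. Groups came from sample titles.

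Counts were summed per library and subtype, in libraries with at least 10 members. Sums were tested with edgeR 4.0.16 in R 4.3.3 (TMM, filterByExpr, quasi-likelihood test), with Benjamini-Hochberg adjustment over all genes tested and a threshold of 0.05 for a call. DESeq2 1.42.0 was an alternative. Numbers of nuclei were tested with edgeR with the total of neurons as offset. On simulated counts for the hemisection comparison, with 200 genes changed by 2 on the log2 scale, 82.5% of them were recovered among 6974 genes. The changed genes were drawn only from those with high mean counts, at a fixed dispersion of 0.05. The recovery of genes with few counts was therefore not measured. Levels used log2(CPM + 1), and Python 3.11.15 with numpy 2.4.6, scipy 1.17.1 and pandas 2.3.3. Binomial intervals are exact (Clopper-Pearson, 95%), and a fold against a count of 0 uses a limit of 3 counts. Coordinates are those of GENCODE M21.

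Named genes were the 12 higher and 8 lower than other neurons with the largest smallest difference over libraries and at least 50 CPM, 6 each way against like subtypes, the 8 largest rises and falls of at least 20 CPM whose groups did not overlap, and up to 6 each way of the called interactions. Some genes and 3 subtypes are not reported here. Members and lists were chosen with earlier results of these data known. Traced and untraced fractions carry the same replicate numbers in their titles, and over 3881 genes their replicate differences had a correlation of 0.264, from 2 pairs.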

Additional observations from a re-analysis of the deposited data

Results flagged for a closer look

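For 8 genes the response to hemisection differed between DI_Nxph1_Npy nuclei and other neurons by edgeR's test of the difference itself (Benjamini-Hochberg over 11881 genes), and DESeq2 called 0 of them. Spp1, the secreted phosphoprotein osteopontin, had an interaction of 3.48 (SE 0.62, adjusted p = 0.000269, edgeR), with 38.5 and 32.8 CPM in members of hemisection replicates 1 and 2 against 15.3 CPM in the control, and 7.64 and 23.0 CPM in other neurons of hemisection replicates 1 and 2 against 49.1 CPM in the control. The members' Spp1 levels rest on 21 and 3 UMIs in hemisection replicates 1 and 2 and 23 in the control. Eya2, a transcriptional coactivator, had an interaction of 1.88 (SE 0.43). Pde11a, a phosphodiesterase, had -3.91 (SE 0.82), on 2 and 0 UMIs in members of hemisection replicates 1 and 2 against 54 in the control, of which 22 lay in 1 nucleus. Adarb2, a relative of the RNA-editing enzymes, had -3.25 (SE 0.61), on 5 and 1 UMIs in members of hemisection replicates 1 and 2 against 87 in the control. Ankfn1 had -1.91 (SE 0.40), Pcsk5 -1.88 (SE 0.40), Arhgap6, a small GTPase regulator, -1.70 (SE 0.39), and Ebf3, a transcription factor, -1.65 (SE 0.39). Of the 8, Adarb2, Ankfn1 and Ebf3 were also called within members. Oligodendrocytes of the control had 93.5 CPM of Adarb2, 40.7 CPM of Pde11a and 19.3 CPM of Spp1. Members of the control had less of each, at 57.9, 35.9 and 15.3 CPM. In oligodendrocytes of hemisection replicates 1 and 2, Adarb2 stood at 48.2 and 30.9 CPM, and Pde11a was also below its control level. Spp1 stood at 18.1 and 68.7 CPM in them. Members of the control had more Eya2, Ankfn1, Pcsk5, Arhgap6 and Ebf3 than its oligodendrocytes. For Eya2, oligodendrocytes had 0 and 1.15 CPM in hemisection replicates 1 and 2 and 8.22 CPM in the control. Other neurons had 9.22 and 13.6 CPM of Eya2 in hemisection replicates 1 and 2 and 25.1 CPM in the control. The part of free RNA in these interactions was not tested. The other neurons were a pool of subtypes whose make-up differed between libraries, and its part in these interactions was not tested.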

How the results depend on the processing

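The 246 calls within the subtype after hemisection depended on the uninjured library and the tool. DESeq2 gave 5 calls, no filter on low counts 140, a minimum of 5 nuclei per library 104, nuclei thinned to 2000 UMIs 38, and untraced libraries as the comparison 5 (1 with at least 5 nuclei). Leaving out a hemisection replicate, run with at least 5 nuclei since 10 left no residual degrees of freedom, gave 17 to 100 calls. For the 8 interactions the counts were 14 with DESeq2's size factors, 15 with total UMIs, 3 with 5 nuclei, 0 with DESeq2, 0 thinned (111 at an unadjusted p under 0.05), 1 against untraced (Kcnq5, none of the 8; 0 with 5 nuclei) and 1 to 2 leaving out a replicate, with Ankfn1 and Ephb1 without hemisection replicate 1 and Spp1 without hemisection replicate 2. The total-UMI, 5-nuclei untraced and leave-one-out settings were added after the data were seen.

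Against untraced libraries (in brackets with 5 nuclei) the sign turned for mt-Nd3 at 0.51 (0.84), Nxph1 at -0.24 (-0.22), Npy at 0.50 (0.49), the interactions of Spp1 at -0.96 (-0.49) and Arhgap6 at 0.18 (0.51), and of Adarb2 with 5 nuclei only at 0.29. It also turned for Tac1 at 0.60, Grik3 at 0.53, Pnoc at 0.13, Calr at 0.06, Hsp90aa1 at 0.30, mt-Nd5 at 1.28, mt-Co1 at 0.11, mt-Co3 at 0.13 and Chga at 0.00, all called lower against the control. Nxph1 was -0.31 thinned and -0.020 without hemisection replicate 2. The causes were not tested.

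The hemisection share ranged from -0.033 to 0.39 leaving out a replicate. The traced share was -3.07 and called with TMM factors, -8.16 to -2.30 leaving out a replicate, and -2.70 with the replicate block (adjusted p = 0.129, edgeR). No gene-level paired fit was possible because the hemisection and control groups share fewer than 2 replicate numbers. Depth limits these results: the 11 members of hemisection replicate 2 held 91410 UMIs and the traced libraries 1 member.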
